A study of Homo sapiens with 9 samples.

Results

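The long arm of chromosome 5 (5q), which is often gained in clear cell renal cell carcinoma, was described here through the ChIP-seq peaks of ZNF395 and MYC. All peaks on chromosome 5 with a start above 49.4 Mb (hg19 build) in 5 deposited lists were taken, which gave 1921 of 52875 peaks. Of these, 778 came from MYC ChIP in parental 786-O cells, 723 from GFP ChIP in 786-O cells carrying eGFP at ZNF395, and 114 from GFP ChIP in parental 786-O cells. A further 275 came from GFP ChIP in A498 cells carrying eGFP at ZNF395 and 31 from GFP ChIP in parental A498 cells. The short arm (5p), taken as chromosome 5 with an end below 46.4 Mb, held 669 peaks in the same lists and served for comparison; no peak of chromosome 5 lay between these limits.

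786-O and A498 are established lines of clear cell renal cell carcinoma, and each was used with and without the tag. Per the labels, the tag was inserted downstream of ZNF395 by transfecting a guide plasmid with a donor plasmid, and the sources used here do not say whether clones or pools of cells were taken. Each list comes from 1 library called against 1 control library. Differences therefore lack a replicate check, no p-value is given, and intervals cover counting error only. The titles name A498 and MYC, while the cell line field of those A498 samples names 786-O and the target field of the MYC sample names P300, a coactivator; the names A498 and MYC follow the titles. Copy number is not in the lists, so whether 5q is gained in either line was not tested.

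ZNF395 is a zinc finger protein that binds DNA and is abundant in clear cell renal cell carcinoma. MYC is a transcription factor that pairs with MAX, binds E-box sequences and acts mainly at promoters of growth, metabolism and ribosome biogenesis genes. A large gain of 5q is among the most frequent chromosome changes of this carcinoma, together with loss of 3p. Genes at the peaks and the bases under them were not analysed here, because the annotation and promoter sequences used are of another build than the peaks; sites are therefore given by position (hg19, counted from 1).

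In the MYC and tagged 786-O lists 5q was the denser arm, and in tagged A498 it was the sparser one. Peaks per 10 Mb of covered span on 5q and 5p were 59.3 (95% interval 55.2 to 63.6) and 43.3 (37.6 to 49.8) for MYC, and 55.1 (51.1 to 59.2) and 45.1 (39.2 to 51.6) for tagged 786-O. Tagged A498 had 20.9 (18.5 to 23.6) peaks per 10 Mb of 5q and 41.2 (35.5 to 47.5) of 5p. The 5q to 5p ratio was thus 1.37 (1.17 to 1.60) for MYC, 1.22 (1.05 to 1.43) for tagged 786-O and 0.509 (0.421 to 0.615) for tagged A498. Parental GFP peaks, the background of the antibody, were few on both arms: 8.68 and 11.9 per 10 Mb in 786-O, and 2.36 and 2.80 in A498. Their 5q to 5p ratios, 0.732 (0.526 to 1.03) and 0.842 (0.428 to 1.75), had intervals that include 1.

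**Figure D1:**
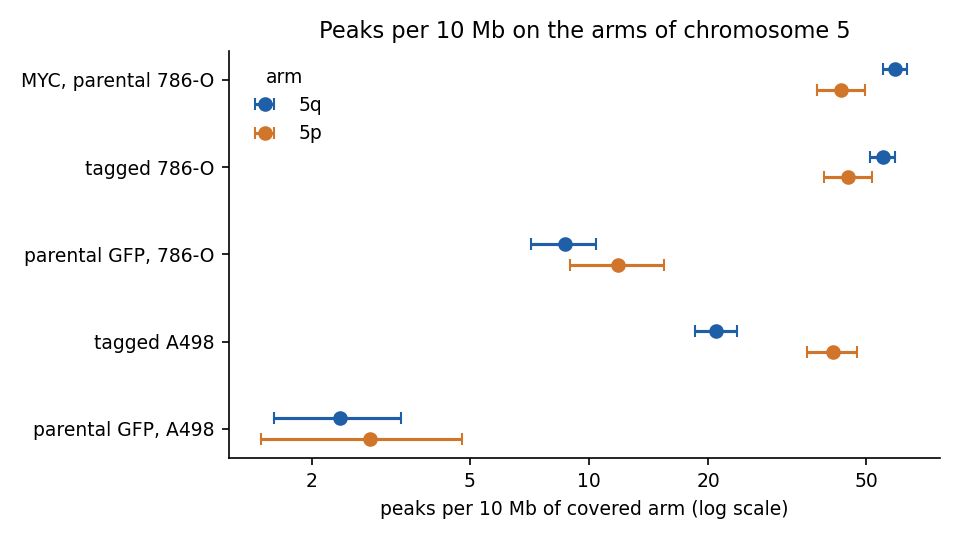
Peaks per 10 Mb of covered span (log axis) on 5q (blue) and 5p (orange) in each of the 5 lists; bars are exact Poisson 95% intervals of the count. MYC and tagged 786-O lie higher on 5q (59.3 against 43.3, and 55.1 against 45.1), tagged A498 lies lower (20.9 against 41.2), and the intervals of both parental lists overlap.

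The low A498 ratio rested largely on the outermost part of the short arm. The first 10 Mb of 5p held 101 of the 191 tagged A498 peaks of 5p, against 57 of 201 MYC and 54 of 209 tagged 786-O peaks. Without those 10 Mb, a choice made after the values were seen, the A498 ratio was 0.847 (0.665 to 1.09) and its interval includes 1. In the upper 50% of each list by score it was 0.877 (0.635 to 1.23) and the MYC ratio was 1.17 (0.943 to 1.45), and both intervals include 1. The tagged 786-O ratio there was 1.42 (1.13 to 1.80). Against chromosomes 1 to 22 and X without chromosome 5, 5q was sparser in every list: 0.853 times as dense for MYC (0.793 to 0.916), 0.801 for tagged 786-O (0.743 to 0.863), 0.808 for tagged A498 (0.714 to 0.911), 0.769 for parental 786-O and 0.478 (0.324 to 0.682) for parental A498.

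Scores of 5q peaks were near those of the rest of the list for MYC and both tagged lists, and lower in both parental lists. The score is the authors' own (taken as −log10 of a p or q) and is compared only within a list. Tagged 786-O peaks of 5q had a median score of 13.9, against 13.0 over all peaks outside 5q (5p included) and 10.9 on 5p. In tagged A498 these medians were 5.62, 5.72 and 4.68, and for MYC 15.6, 16.2 and 19.0. Parental peaks had medians of 5.57 on 5q and 6.61 outside 5q in 786-O, and of 6.14 and 14.2 in A498. The upper 10% of the whole list held 75 of the 723 tagged 786-O peaks (10.4%), 60 of the 778 MYC peaks (7.71%) and 19 of the 275 tagged A498 peaks (6.91%). It held 2 of the 114 parental 786-O peaks (1.75%) and 1 of the 31 parental A498 peaks. Median widths were 408 bp in tagged 786-O, 424 bp for MYC and 240 bp in tagged A498.

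Merging peaks that overlap by 1 bp or more gave 1147 sites on 5q. MYC alone accounted for 310 sites, MYC with tagged 786-O for 260, tagged 786-O alone for 230, and MYC with both tagged lists for 105. Tagged A498 alone made 94 sites, and the other 148 sites fell into 20 further combinations. A parental list took part in 126 of the 1147 sites. On 5q 58.3% of the sites came from a single list, and on 5p 76.1% of 476 sites did, of which tagged A498 alone gave 152.

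Peaks of tagged cells that overlap no peak in parental cells of the same line are called tagged-only. The 10 highest tagged-only 786-O peaks of 5q all had a tagged A498 peak and a MYC peak. By definition none had a parental 786-O peak, and none had a parental A498 peak either. Such overlap was common at high scores. Of the 56 tagged-only peaks of 5q in the upper 10% of the tagged 786-O list, 39 (69.6%) overlapped a tagged-only A498 peak. A MYC peak lay at 45 of the 56 (80.4%). In the highest score class of that list (classes are defined under the processing), these shares were 48.5% and 84.7% on other chromosomes. The leading site, at 107716413 to 107718343, scored 186.9 in tagged 786-O (rank 40 of 20034). Its tagged A498 peak scored 36.8 (rank 175 of 7718), and its MYC peak ranked 7092 of 20199. The site at 89770163 to 89771132 was next in 786-O, with a score of 177.9 and rank 54. In A498 it led the arm, with a score of 90.3 and rank 27, while its MYC peak was in the lower part of that list (score 12.3, rank 12421). Both sites thus stood near the top of the tagged lists. In the MYC list the first scored 24.6, above that list's median of 16.2, and only the second lay below it.

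The site at 179921066 to 179922168 had a score of 161.4 (rank 75) in tagged 786-O, with ranks of 751 in A498 and 4979 for MYC. The site at 133968204 to 133968771 had a score of 161.1 (rank 79), with ranks of 1140 and 10162. From there to the tenth, at 177026713 to 177027420, tagged 786-O scores ran from 123.9 down to 93.3. By rank number, only the site at 176432841 to 176434315 among the 10 stood higher in the MYC list (rank 1299) than in the A498 list (rank 2786). These lists differ in length, with 20199 and 7718 peaks. Relative to list length, the sites that begin at 179232889 and 172571324 also stood higher in the MYC list. Their ranks were 3040 and 4639 for MYC, and 1302 and 1818 in A498. Also among the 10 were the sites that begin at 134094154 and 176899757.

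**Figure D2:**
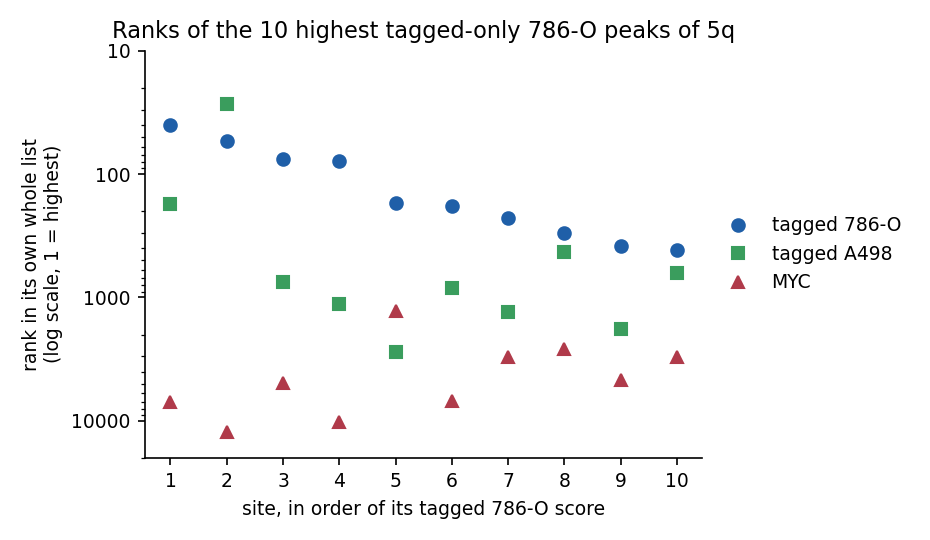
Rank (log axis, 1 = highest) of the 10 highest tagged-only 786-O peaks of 5q in tagged 786-O (circles), tagged A498 (squares) and MYC (triangles), each in its own whole list. The 786-O ranks run from 40 to 416, the A498 ranks from 27 to 2786, and the MYC ranks from 1299 to 12421.

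Some of the strongest tagged signal of 5q coincided with antibody background. Among the 14 highest tagged 786-O peaks of 5q, 4 lay at a parental 786-O peak and so fell out of the tagged-only list. They were at 177631002 to 177632516 (score 131.4), 180633566 to 180634380 (score 129), 175842915 to 175843950 (score 120.6) and 106878088 to 106878488 (score 101). The first 3 had a tagged A498 peak and a MYC peak, and the last had neither. The 14 end at the tenth tagged-only peak, so the count depends on that cut and is no rate. A parental 786-O peak lay at 11.6% of the tagged 786-O peaks of 5q and at 12.2% of all.

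In A498, the 10 highest tagged-only peaks of 5q all had a peak in the tagged 786-O list, and 9 had a MYC peak. Such overlap was common at high scores. In the highest score class of the tagged A498 list, 71.7% of the tagged-only peaks of 5q had a MYC peak, against 77.4% on other chromosomes. In that class 26.4% of the tagged-only peaks on 5q overlapped no tagged-only 786-O peak, against 36.2% on other chromosomes. After 89770592 to 89771032 and 107717059 to 107718259 came 178157282 to 178157856, with a score of 35.0 (rank 189) and a tagged 786-O rank of 610. The peak at 134240210 to 134240584 scored 27.6 in A498 (rank 271) but ranked only 5412 in tagged 786-O, and its MYC peak ranked 1287. The peak at 137827668 to 137828090 (score 20.0) was the 1 of the 10 with no MYC peak. The lowest of the 10, at 171615708 to 171615982, scored 19.6.

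The strongest MYC sites of 5q were not the strongest tagged sites. The highest MYC peak, at 154133939 to 154135519, scored 336.1 (rank 10 of 20199), while its tagged 786-O peak ranked 6836 and its tagged A498 peak 3635. The next, at 175963081 to 175964607 (score 309.4), had a tagged 786-O rank of 11168 and no A498 peak. Of the 10 highest MYC peaks 9 had a tagged 786-O peak and 3 a tagged A498 peak. In the highest score class of the whole MYC list, these shares were 82.6% and 31.4% on 5q. Outside chromosome 5 they were 80.0% and 31.4%, so the counts among the 10 were near the usual shares at high scores. A parental 786-O peak was present at 5 of the 10, and a parental A498 peak at 1, the site at 176738742 to 176740017. In the highest score class of the whole MYC list, a parental 786-O peak lay at 13.4% of the sites on 5q and 18.9% outside chromosome 5. Over all MYC sites this share was 9.60%. A parental A498 peak lay at 1.23% of all MYC sites. The MYC peak at 177630947 to 177632557 (score 162.5, rank 356) had the highest tagged 786-O rank of the 10 (146), and a parental 786-O peak of rank 1139 lay there too.

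By the sum of ranks, the leading sites of tagged-only 786-O and MYC were 138609642 to 138610008 (ranks 805 and 479), 176432841 to 176434315 (173 and 1299) and 114961289 to 114962062 (1066 and 939). They were followed by 179498175 to 179499394 (1146 and 1405) and 149828924 to 149829843 (1966 and 850). Tagged A498 had a peak at 4 of these 5 and none at the first. The MYC peaks of highest score with no tagged peak in either line were at 131794550 to 131795718 (score 254.7), 131551039 to 131551542 (score 86.0), 134073831 to 134074398 (score 78.7), 149429557 to 149430154 (score 72.8) and 96050621 to 96051000 (score 67.2). None of these 5 had a parental peak, which was the usual case without a tagged peak. Of the merged sites of 5q, 310 had MYC alone and 4 had only MYC and parental 786-O. The first of the 5 was itself among the 10 highest MYC peaks of the arm.

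By overlap of at least 1 bp, most MYC sites of 5q had a tagged 786-O peak and a minority had a tagged A498 peak. The shares were close to those of the whole lists, and they include tagged peaks that lie at parental peaks. A tagged 786-O peak lay at 461 of the 778 MYC sites, 59.3% (exact 95% interval 55.7 to 62.7), against 60.9% of all MYC sites. A tagged A498 peak lay at 139, 17.9% (15.2 to 20.7), against 17.2% of all. On 5p the shares were 54.2% (47.1 to 61.3) and 16.4% (11.6 to 22.3), so 5q was higher by 5.03 points (Newcombe 95% interval -2.57 to 12.7) in 786-O and by 1.45 points (-4.83 to 6.76) in A498. Both intervals include 0. The levels depend on the overlap asked for: with 50% reciprocal overlap the shares on 5q were 37.8% in 786-O and 6.17% in A498. The difference between the arms in 786-O was -3.62 points (-13.9 to 6.77) in the upper 50% of each list by score. It was 8.56 points (0.544 to 16.6) without the 5 Mb next to the centromere and 8.22 points (0.522 to 16.0) without 150 to 170 Mb of 5q, and these 2 intervals lie above 0. The arms were farther apart when only tagged-only 786-O peaks counted, at 50.8% on 5q and 39.3% on 5p, a difference of 11.5 points (3.73 to 18.8). Over all MYC sites this share was 51.8%, so 5q was near it and 5p was below. A parental 786-O peak lay at 8.23% of the MYC sites of 5q, 14.4% of those of 5p and 9.60% of all.

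Among MYC sites, nearly all those tagged in A498 were also tagged in 786-O. MYC was mapped in 786-O only, and the tagged 786-O list is the longer one (20034 peaks against 7718). The part of either in this result was not tested. Of the 778 MYC sites of 5q, 136 had tagged peaks in both lines, 325 in 786-O only and 3 in A498 only. The other 314 (40.4%, 36.9 to 43.9) had no tagged peak, against 38.9% of all MYC sites. The A498-only class was 0.178% of all MYC sites and 0.386% (0.0796 to 1.12) of those on 5q. Its 3 sites, at 132202050, 171023277 and 179285567, had A498 scores of 5.41, 2.73 and 2.50, where lists begin just above 2. MYC score differed between the classes: the median was 24.7 at sites tagged in both lines, 17.6 at sites tagged in 786-O only and 11.9 at sites without a tagged peak. Median widths in these classes were 731, 511 and 294.5 bp, and a wide peak has more room to overlap.

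The share of MYC sites with a tagged peak fell with the MYC score on 5q. The whole MYC list was cut into 4 score classes of equal size. From the highest class to the lowest, 82.6%, 57.8%, 56.1% and 44.6% of the 5q sites had a tagged 786-O peak, against 80.0%, 66.4%, 52.3% and 45.5% outside chromosome 5. The interval of the second class on 5q (50.7 to 64.7) lay below the share outside chromosome 5, and those of the other classes included it. In A498 the shares on 5q were 31.4%, 19.6%, 15.3% and 7.51%, against 31.4%, 18.4%, 11.4% and 7.36%. With the shares of 5p weighted to the score classes of 5q, they were 51.6% in 786-O and 14.9% in A498.

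**Figure D3:**
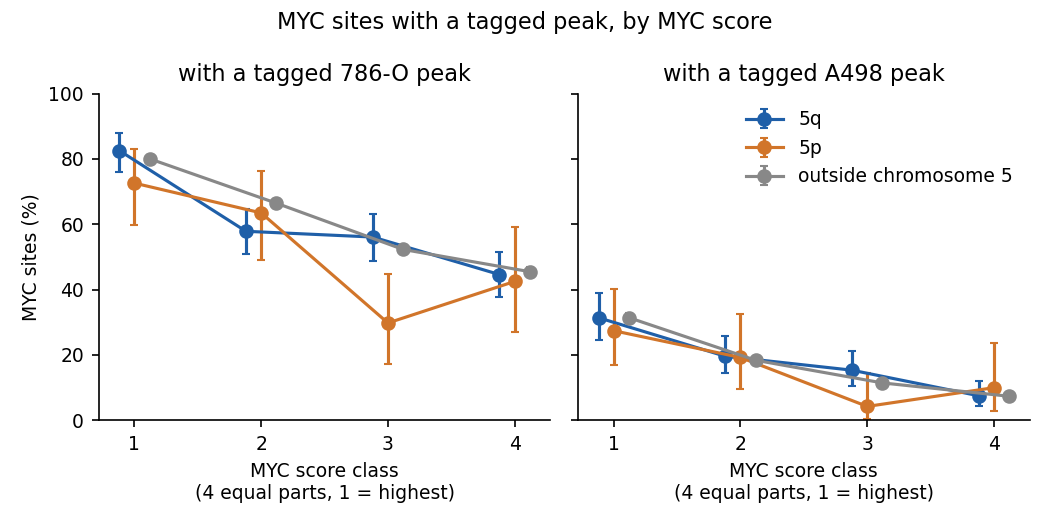
Share of MYC sites (%) with a tagged 786-O peak (left) and with a tagged A498 peak (right) by score class of the whole MYC list, 1 being the highest scores, on 5q (blue), 5p (orange) and outside chromosome 5 (grey); bars are exact 95% intervals. On 5q the share falls from 82.6% to 44.6% in 786-O and from 31.4% to 7.51% in A498. In 786-O the grey point of class 2 (66.4%) lies above the interval on 5q.

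Seen from the other side, 387 of the 639 tagged-only 786-O peaks of 5q (60.6%, 56.7 to 64.4) lay at a MYC peak, against 58.8% of all tagged-only 786-O peaks and 45.5% (37.9 to 53.1) on 5p. Tagged-only A498 peaks overlapped 125 of the 639 (19.6%, 16.6 to 22.9), against 16.1% of all. In classes, 105 had both an A498 and a MYC peak, 282 MYC without A498, 20 A498 without MYC, and 232 neither. Their median tagged 786-O scores were 36.3, 13.0, 34.9 and 8.14, and the widths 889, 451, 551.5 and 237 bp. Scores were thus higher in both classes with an A498 peak, with or without MYC. Across the 166 tagged 786-O peaks of 5q with a tagged A498 peak, scores in both lists had a Spearman's rho of 0.32, and across the 448 with a MYC peak it was 0.14. These describe peaks of the same libraries, which are not independent.

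Along the arm, most MYC sites lay in its outer part. The stretch from 50 to 130 Mb held 247 MYC sites and the stretch from 130 Mb to the end of the arm held 529, led by the bins from 130 to 140 Mb (155) and from 170 to 180 Mb (152). In 786-O, the share of MYC sites with a tagged peak was between 58.3% and 72.7% in each of the 8 bins of 10 Mb from 50 to 130 Mb. The highest was 72.7% (54.5 to 86.7) from 60 to 70 Mb, with 24 of 33 sites. It was 60.0% from 130 to 140 Mb and 53.3% from 140 to 150 Mb. In the next bins it was 40.3% (28.5 to 53.0; 27 of 67 sites) from 150 to 160 Mb and 31.2% (16.1 to 50.0; 10 of 32) from 160 to 170 Mb, and it was 63.2% (55.0 to 70.8; 96 of 152) from 170 to 180 Mb. On 5p, the bins with at least 20 MYC sites had 50.9%, 44.4%, 56.6% and 81.5%, in order from the end of the arm. The bin from 20 to 30 Mb of 5p held 1 MYC site.

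The 150 to 170 Mb stretch stood low among bins of the whole genome. Of 247 bins of other chromosomes with at least 20 MYC sites, whose median share was 61.1%, none was as low as 31.2%, and 1 was below 40.3% (37.7%, on chromosome 6). In A498 the same bins had 8.96% (3.36 to 18.5) and 9.38% (1.98 to 25.02), the second with only 3 of 32 sites, and 33 and 35 of the 247 bins were lower. All 13 bins of 5q lay between the 10th and 90th percentiles of the other bins for A498 (7.35% to 27.6%), and 10 of 13 did so for 786-O (50.0% to 71.8%).

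**Figure D4:**
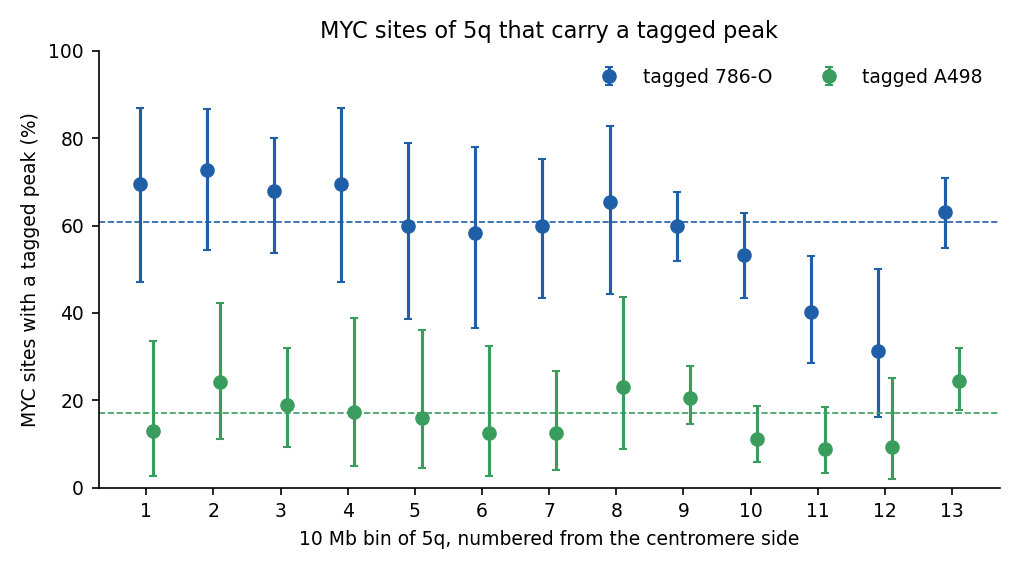
Share of MYC sites (%) with a tagged 786-O (blue) or tagged A498 (green) peak in the 13 bins of 10 Mb of 5q with at least 20 MYC sites, numbered from the centromere side (bin 1 is 50 to 60 Mb); bars are exact 95% intervals and dashed lines the shares over all chromosomes, 60.9% and 17.2%. In 786-O, bins 11 and 12 are at 40.3% and 31.2%, and bin 13 is at 63.2%.

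Taken as a stretch, which was chosen after these values were seen, 150 to 170 Mb had a tagged 786-O peak at 37 of 99 MYC sites (37.4%, 27.9 to 47.7), against 62.4% (58.7 to 66.1) of the other 679 sites of 5q. MYC scores were somewhat lower there, with a median of 12.4 against 16.0. Within each score class of the MYC list the share was lower in the stretch: 55.6%, 40.9%, 38.5% and 24.2%, against 85.7%, 59.9%, 58.9% and 48.3%. Weighted to the score classes of the stretch, the rest of 5q had 60.5%. In bins of 5 Mb the lowest shares were 31.2% from 155 to 160 Mb and 28.6% from 165 to 170 Mb, where 10 of 32 and 8 of 28 sites had a tagged peak. From 160 to 165 Mb there were only 4 MYC sites.

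Tagged 786-O peaks were present in the stretch but fewer than over the arm. There were 52 from 150 to 160 Mb and 28 from 160 to 170 Mb, against 55.1 per 10 Mb of 5q. The stretch held 80 of them, 0.808 for each MYC site, against 0.947 on the rest of 5q. Their median score was 11.5, against 14.2. Fewer of its tagged-only peaks had a MYC partner, at 47.4% (35.8 to 59.2) of 76, against 62.3% (58.2 to 66.4) elsewhere on 5q. A parental 786-O peak lay at 3 of the 99 MYC sites (3.03%), against 8.98% on the rest of 5q. The highest MYC sites of the stretch did have tagged 786-O peaks: 154133939 to 154135519 (MYC score 336.1), 154236748 to 154238249 (score 128.7) and 162886651 to 162887369 (score 95.2). The highest without one were 159658712 to 159659247 (score 57.3), 169143275 to 169143741 (score 56.3) and 159592154 to 159592965 (score 54.4).

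An unshared A498 peak is a tagged-only A498 peak with no overlapping tagged-only 786-O peak. These made up 132 of the 263 tagged-only A498 peaks of 5q (50.2%, 44.0 to 56.4), against 58.7% of all tagged-only A498 peaks and 163 of 189 (86.2%, 80.5 to 90.8) on 5p. The difference between the arms was -36.1 points (-43.4 to -27.8). Per 10 Mb there were 10.1 (8.41 to 11.9) on 5q and 35.1 (30.0 to 41.0) on 5p, a ratio of 0.286 (0.226 to 0.362). Shared A498 peaks went the other way, with 131 on 5q and 26 on 5p, or 9.98 and 5.61 per 10 Mb, a ratio of 1.78 (1.16 to 2.83). The first 10 Mb of 5p alone held 92 of its 163 unshared peaks. Without it 5p had 19.5 per 10 Mb and the ratio was 0.515 (0.383 to 0.698). With 50% reciprocal overlap the unshared share on 5q was 84.7% and the difference between the arms -10.6 points, and in the upper 50% of scores 5q had 3.88 unshared peaks per 10 Mb.

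Other chromosomes had 14.04 unshared A498 peaks per 10 Mb, and 5q had 0.716 (0.597 to 0.852) times that density while 5p had 2.50 (2.13 to 2.93) times. On 5q the counts per bin of 10 Mb ran from 0 to 26. They were highest from 130 to 140 Mb (26), from 170 to 180 Mb (23) and from 140 to 150 Mb (21), which are also the bins with the most MYC sites. The bins from 80 to 90 Mb and from 160 to 170 Mb held 0 and 1, beside 6 and 4 shared peaks. The share of tagged-only A498 peaks that were unshared was 50.0% of 52 from 130 to 140 Mb, 67.7% of 31 from 140 to 150 Mb and 41.8% of 55 from 170 to 180 Mb, and other bins of 5q held fewer than 20 such peaks. The first bin of 5p had 92.0% of 100.

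**Figure D5:**
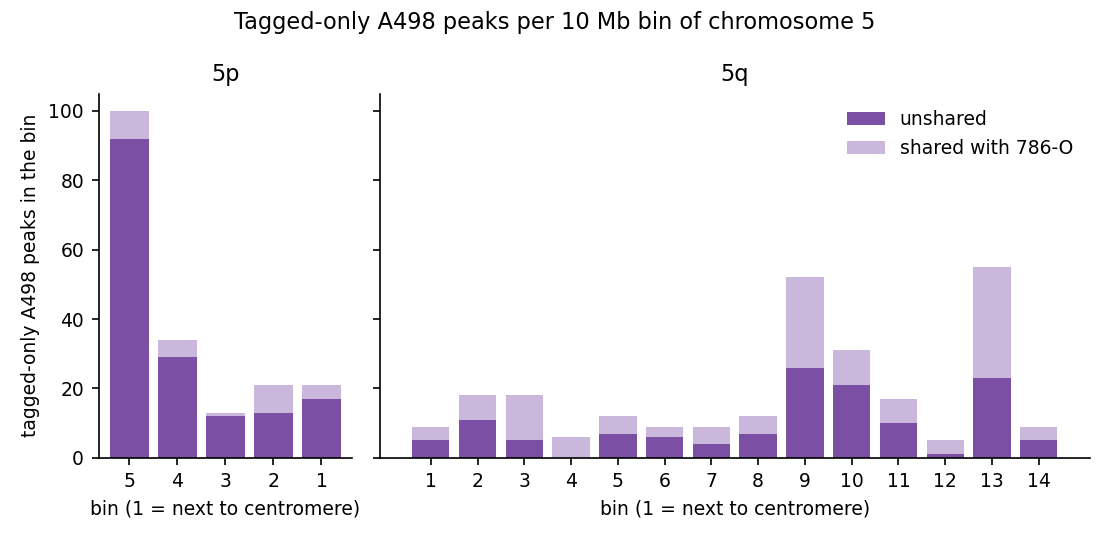
Tagged-only A498 peaks in each 10 Mb bin of 5p (left) and 5q (right), numbered from the centromere, divided into unshared (dark) and shared with tagged-only 786-O (light); the last bin of each arm ends at its limit or last peak. The outermost bin of 5p holds 92 unshared and 8 shared peaks, while bins 9 and 13 of 5q hold 26 and 26, and 23 and 32.

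Tagged-only A498 peaks of 5q lay at a MYC peak in 138 of 263 cases (52.5%, 46.2 to 58.6), against 48.0% of all and 16.4% (11.4 to 22.5) on 5p. Those that were unshared scored lower and were seldom at MYC sites. Their median score was 4.96 and the highest was 24.2, while shared peaks had a median of 6.03 and reached 90.3. A MYC peak lay at 30 of the 132 (22.7%, 15.9 to 30.8), against 21.7% of all unshared A498 peaks, 6.75% (3.42 to 11.8) of those on 5p and 82.4% (74.8 to 88.5) of the shared peaks of 5q. At 35 of the 132 (26.5%, 19.2 to 34.9) a tagged 786-O peak was present but had been set aside because it overlapped parental signal. That share was 22.3% over all chromosomes and 6.75% on 5p. No other list had a peak at most of them: 94 of the 132 on 5q (71.2%) and 152 of the 163 on 5p (93.3%) stood alone, against 76.5% of all unshared A498 peaks.

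Of the 5 highest unshared A498 peaks of 5q, 4 had a tagged 786-O peak. They were at 177631195 to 177632386 (score 24.2), 180633730 to 180634025 (score 17.8), 149865906 to 149866151 (score 14.6) and 172196595 to 172196812 (score 12.3). The remaining one, at 140305841 to 140306521 (score 17.8, rank 593 of 7718), had no peak in any other list.

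Antibody background took a small part of the tagged peaks of 5q. A parental 786-O peak lay at 84 of the 723 tagged 786-O peaks (11.6%, 9.37 to 14.2), against 12.2% of all, and a parental A498 peak at 12 of the 275 tagged A498 peaks (4.36%, 2.27 to 7.50), against 6.93% of all. In the other direction, 84 of the 114 parental 786-O peaks (73.7%, 64.6 to 81.5) were called again in tagged cells and 66 (57.9%, 48.3 to 67.1) had a MYC peak, against 76.2% and 60.5% of all. For the 31 parental A498 peaks these counts were 13 and 7, or 41.9% (24.5 to 60.9) and 22.6% (9.59 to 41.1), against 35.1% and 15.9% of all. A parental A498 peak lay at 10 of the 114 parental 786-O peaks (8.77%, 4.29 to 15.5), against 21.6% of all and 22.3% (20.9 to 23.8) outside chromosome 5.

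Parental A498 peaks lay unevenly along the arm, with a group beside the centromere limit. Their longest gap was 26.9 Mb, from 110614752 to 137514646, and the next peak lay within 10 kb in 30.0% of cases. Of the 31, 9 lay from 50 to 130 Mb and 15 beyond 130 Mb, and 7 lay between 49405756 and 49549663, with scores from 4.79 to 50.3; of these 7 none had a parental 786-O or MYC peak and 1 had a tagged A498 peak. The highest parental A498 peak of the arm was in this group, at 49410185 to 49410325. The highest parental 786-O peak, at 137803868 to 137806745 (score 62.5, rank 53 of 3361), was called in all lists but MYC. The next, at 146587509 to 146587641 (score 31.9), had partners in parental A498 (score 26.7) and tagged A498 (score 13.0) but no tagged 786-O peak.

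Spacing also differed between the lists. The median gap between neighbouring peaks of 5q was 39.6 kb for MYC, 52.8 kb for tagged 786-O and 164.5 kb for tagged A498, and the next peak lay within 10 kb in 28.3%, 25.6% and 10.9% of cases. The longest stretches without a peak were 3.82 Mb for MYC, from 98265358 to 102090291, and 3.83 Mb for tagged 786-O, from 102898738 to 106724933. In tagged A498 the longest was 5.20 Mb, from 82770594 to 87971594. On 5p MYC had a far longer one, 10.2 Mb from 20679418 to 30850123, while tagged 786-O had at most 2.04 Mb there.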

How the data were processed

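Peak lists of 5 of the 9 samples were used; the 4 input samples entered only as the authors' controls. The submitters' processing notes name BWA, MACS2 and hg19, with no roles, versions or settings. Per the labels' protocols, libraries were sequenced to 30 to 50 M reads; depth behind single peaks is unknown. The deposited lists have 5 columns and no header. Peak coordinates (other deposited values) were used as given. The deposited score was taken as −log10 of a p or q, since every list begins just above 2, and was used only within its list. The MYC and parental 786-O lists name the same control library.

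Overlap meant at least 1 bp. Shares carry exact (Clopper-Pearson) 95% binomial intervals, densities exact Poisson intervals over the span from the first to the last peak of an arm, ratios exact conditional intervals and differences of shares Newcombe intervals; peaks are treated as independent. Score classes are 4 equal parts of a whole list. Bins were 10 Mb, by peak midpoint, and were read only with at least 20 MYC sites. Sites named were the 10 highest tagged-only peaks of each line and MYC peaks, the 5 highest MYC peaks without a tagged peak, unshared A498 peaks and parental peaks, and the 5 of best rank sum. Those at 150 to 170 Mb, in A498 only and among the 14 highest were chosen after their values were seen. The arm, rules and lists were chosen with earlier results of these data known. Counts and intervals used scipy 1.17.1, pandas 2.3.3, statsmodels 0.14.6 and numpy 2.4.6 under Python 3.11.15, with plots by matplotlib 3.10.9, and overlap rules were tested on simulated data and against bedtools 2.31.1. Genes, motifs and sequences need an hg19 annotation and genome and were not analysed here.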

Additional observations from a re-analysis of the deposited data

Results flagged for a closer look

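The tagged libraries of the 2 lines differed in direction between the arms: the 5q to 5p ratio of peaks per 10 Mb was 1.22 in tagged 786-O and 0.509 in tagged A498. The difference between the lines was not tested, since each is 1 library. Without the first 10 Mb of 5p the ratios were 1.29 (1.09 to 1.55) and 0.847 (0.665 to 1.09). With the upper 50% of each list by score the ratios were 1.42 (1.13 to 1.80) and 0.877 (0.635 to 1.23). Parental libraries had ratios of 0.732 in 786-O and 0.842 in A498. Their part, and that of copy number, in the difference was not tested.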

How the results depend on the processing

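Of 107 alternative values for the main results, 75 stayed within the reported 95% interval and 32 left it; no called direction turned. With 50% reciprocal overlap, MYC sites of 5q with a tagged peak were 37.8% in 786-O and 6.17% in A498, unshared A498 peaks 17.3 per 10 Mb of 5q and 84.7% of the tagged-only peaks, tagged-only 786-O peaks at MYC 40.9%, tagged 786-O peaks at parental peaks 2.35%, the unshared 5q to 5p ratio 0.443 and the difference in unshared share -10.6 points. With midpoints within 200 bp these first 6 were 43.6%, 12.7%, 12.04, 59.8%, 46.6% and 7.75%. In the upper 50% of scores the 786-O share was 48.1%, unshared peaks 3.88 per 10 Mb and 38.9%, tagged-only 786-O at MYC 46.7%, tagged peaks at parental peaks 7.51% in 786-O and 2.24% in A498, the unshared ratio 0.462, the 786-O difference between arms -3.62 points, and the 5q to 5p ratios 1.17 (0.943 to 1.45) for MYC and 0.877 (0.635 to 1.23) for tagged A498, whose intervals include 1. The 786-O share was 50.8% when only tagged-only peaks counted and 33.8% with its list limited to the number of A498 peaks. With unshared meaning no peak of the full tagged 786-O list, unshared peaks were 7.39 per 10 Mb and 36.9%, the ratio 0.225 and the difference -43.5 points. Without the first 10 Mb of 5p the unshared and all-A498 ratios were 0.515 and 0.847. Reciprocal and midpoint rules lower overlap by construction; the cause of other moves was not tested. Removing the 5 Mb beside the centromere, the widest 1% of peaks or 150 to 170 Mb, or using whole arm lengths, moved no main result out of its interval. Without the 5 Mb beside the centromere or without 150 to 170 Mb, however, the 786-O difference between the arms, 5.03 points (-2.57 to 12.7), became 8.56 (0.544 to 16.6) and 8.22 (0.522 to 16.0), whose intervals no longer include 0; with tagged-only peaks it was 11.5 (3.73 to 18.8). Leaving out 150 to 170 Mb or the first 10 Mb of 5p was chosen after seeing the data. The share at 150 to 170 Mb was 24.2%, 27.3% and 32.5% under the first 3 alternatives and 20.2% with the limited 786-O list. No paired analysis was possible because each group is 1 library. Alternatives that need genes or sequences were not run.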

Other observations

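The fullest 1 Mb of 5q over all 5 lists was 172 to 173 Mb, with 93 peaks: 40 MYC, 33 tagged 786-O, 9 parental 786-O, 8 tagged A498 and 3 parental A498. From 176 to 177 Mb there were 31 MYC, 30 tagged 786-O and 11 tagged A498 peaks. From 137 to 138 Mb parental peaks were a larger part, with 10 in parental 786-O and 5 in parental A498 beside 10 MYC, 17 tagged 786-O and 11 tagged A498 peaks. Peaks of all 5 lists met at 4 sites of 5q: 57755253 to 57756595, 137799631 to 137802647, 172195504 to 172198697 and 176738595 to 176740017. Those at 137799631 and 172195504 are chains of 9 and 10 overlapping peaks, so not every pair of lists need overlap there directly.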
